A study of Homo sapiens with 6 samples.

Results

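The zinc finger protein genes with symbols made of ZNF, a number and at most 1 further letter belong to the largest class of human transcription factors. The deposited table holds 67 of them among its 3511 genes, and all 67 carry the classical C2H2 zinc finger in the InterPro text of the table. The same text annotates a Krueppel-associated box, or KRAB domain, in 46 of the 67 genes and none in the other 21. A SCAN domain, through which such proteins pair with each other, was annotated in 3 members (ZNF165, ZNF263 and ZNF394), of which ZNF263 and ZNF394 also carry KRAB. ZNF598 alone carried a RING finger.

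RNA libraries came from RKO, an established line of human colorectal carcinoma labelled wild type, after 48 h in control medium with 10% serum and 4.5 g/L glucose (3 libraries) or in fasting medium with 1% serum and 1 g/L glucose (3 libraries). Drug treatments that the design text names are not analysed here. The labels do not tell separate cultures from repeat preparations, and the spread behind each p-value may therefore be technical.

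C2H2 zinc fingers are short folds held by a zinc ion, and several in a row read out a DNA sequence. In most KRAB proteins the finger array brings the protein to chosen genomic sites, many of them in transposable elements. There the KRAB domain recruits the corepressor TRIM28, which in turn brings a histone methyltransferase, heterochromatin proteins and DNA methylation. ZNF proteins without KRAB have more varied roles, among them transcriptional activation, ribosome quality control and assembly of the large ribosomal subunit.

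The table holds only genes that the authors had called, with a highest adjusted p of 0.04999, and these make 11.8% of the 29845 genes that they tested. GENCODE release 29 annotates 509 protein-coding genes that fit the symbol rule, of which the 67 members make 13.2%, and the table holds 15.4% of all protein-coding genes. No value for an unlisted gene was used. Values are normalized counts, the reads of a gene divided by a size factor for its library. Reads in listed genes ran from 4017618 to 5602177 per library and reads in the members from 24549 to 36450, while the total depth is unknown. Fasting replicate 3 stood apart from the other fasting libraries by transcript length, and results that rest on it are given with and without it. Of 5 epithelial markers only KRT18 was listed, and it rose (log2 fold change 1.72). None of 5 colon, 3 fibroblast, 4 leukocyte and 3 endothelial markers was listed, so the table cannot check the labelled cell type.

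In fasting medium 46 ZNF genes rose and 20 fell on the deposited scaling, and 20 rose and 21 fell when libraries were scaled to total reads. Of the 46 KRAB genes, 34 rose and 11 fell past an adjusted p of 0.05 (limma, Benjamini-Hochberg over all genes the authors tested). The other KRAB gene, ZNF525, had a log2 fold change of -0.76 and an adjusted p of 0.103. Of the 21 genes without KRAB, 12 rose and 9 fell. Because the listed genes had been chosen for their difference, 94.3% of all 3511 passed the same test, 49.7% of them higher and 44.6% lower, and the 66 of 67 ZNF genes that passed are not a result about the family. In the authors' deposited table the KRAB genes split 34 higher to 12 lower, the others 12 to 9 and all listed genes 1764 (50.2%) to 1747 (49.8%). The 3 values of each group lay apart from those of the other group in all 67 members, as in 100% of listed genes.

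This split depended on the scaling of the libraries. When edgeR was run with each library scaled by its reads in listed genes, log2 fold changes shifted by a median of -0.47, and 12 KRAB genes rose and 12 fell. Without KRAB 8 rose and 9 fell. Under that scaling 25.0% of listed genes were higher and 49.4% lower. No member changed sign, and neither did any other listed gene. The lowest log2 fold change among the 46 members with positive values was then 0.06, for ZNF263. With DESeq2 and its own size factors over the listed genes, which raised the values by a median of 0.21, the KRAB genes stood at 34 to 10 and the others at 12 to 8, where 50.2% of listed genes were higher and 38.3% lower. On the deposited size factors edgeR called 34 and 11 KRAB genes and 95.7% of listed genes, and DESeq2 called 34 and 12 and 99.2%. The listed genes alone cannot decide between these scalings, and changes below are on the deposited scaling.

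**Figure D1:**
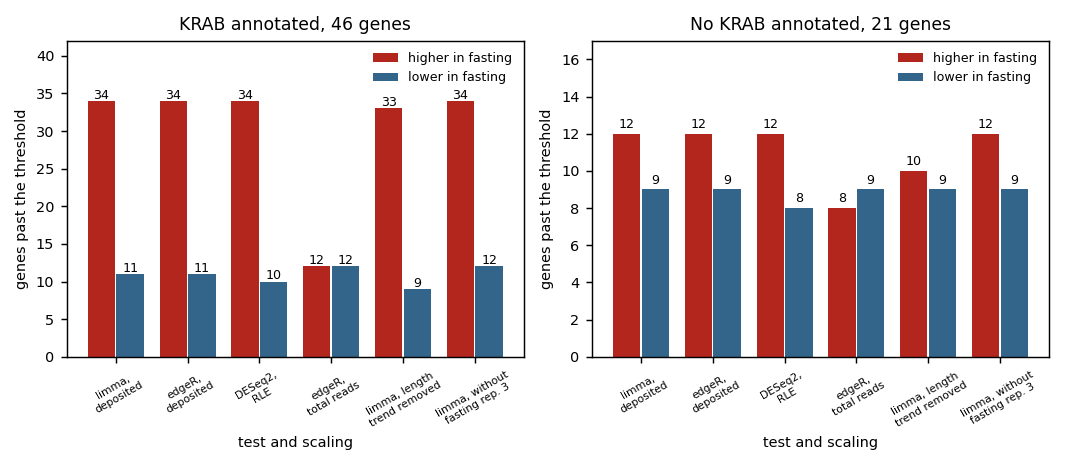
Number of ZNF genes past an adjusted p of 0.05 (y axis) by test and scaling (x axis), for 46 genes with KRAB (left) and 21 without (right); red bars are genes higher in fasting medium and blue bars genes lower. Scaling to total reads takes the KRAB rises from 34 to 12, while leaving out fasting replicate 3 leaves 34 higher and 12 lower.

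The sizes of change lay near those of the whole table. The median log2 fold change was 0.75 over the 46 KRAB genes and 0.72 over the 21 others, beside 0.53 over all listed genes. No listed gene lay between -0.51 and 0.51, so these signed medians follow the split of directions and do not measure size. The median absolute log2 fold change was 0.87 with KRAB, 1.04 without and 0.97 over the table. Among KRAB genes 12 rose and 5 fell at least 2-fold past the threshold, and among the others 7 rose and 5 fell, where 26.6% of listed genes rose and 19.8% fell by that much. These counts moved with the scaling and with fasting replicate 3. Under total-read scaling they were 5 and 12 with KRAB and 4 and 9 without, where 12.3% of listed genes rose and 49.3% fell. With DESeq2's own size factors they were 19 and 2 with KRAB, where 35.9% rose and 11.4% fell. Without fasting replicate 3 they were 13 and 2 with KRAB and 7 and 6 without, where 25.0% rose and 19.5% fell, and without any 1 of the control libraries a single KRAB gene fell that much. Summed over the 46 KRAB genes, normalized counts were 11347, 11248 and 11266 in the control libraries and 17508, 17858 and 17436 in the fasting libraries, in the order of their replicate numbers, as in all such series below. On this scaling the fasting sums thus lay above the control sums and close to each other. As a share of reads in listed genes, fasting replicate 3 (12680 of 4389842) stood nearer to the controls. Control replicate 1 had 11505 of 4017618 and fasting replicate 1 had 13792 of 4187326. Over the 21 genes without KRAB the sums were 14008, 14648 and 13988 in control and 15174, 14888 and 16321 in fasting libraries, with a smaller distance between the groups. Their order turned with the scaling. As a share of reads in listed genes, every fasting library lay below every control library. The lowest control, replicate 3, had 19246 of 5513396 reads, and the highest fasting library, replicate 1, had 11953 of 4187326. ZNF672, which fell, alone held 6908 of the reads in that control library and 2306 in that fasting library. The sums without KRAB and their order therefore lean on a single gene and do not describe the class.

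**Figure D2:**
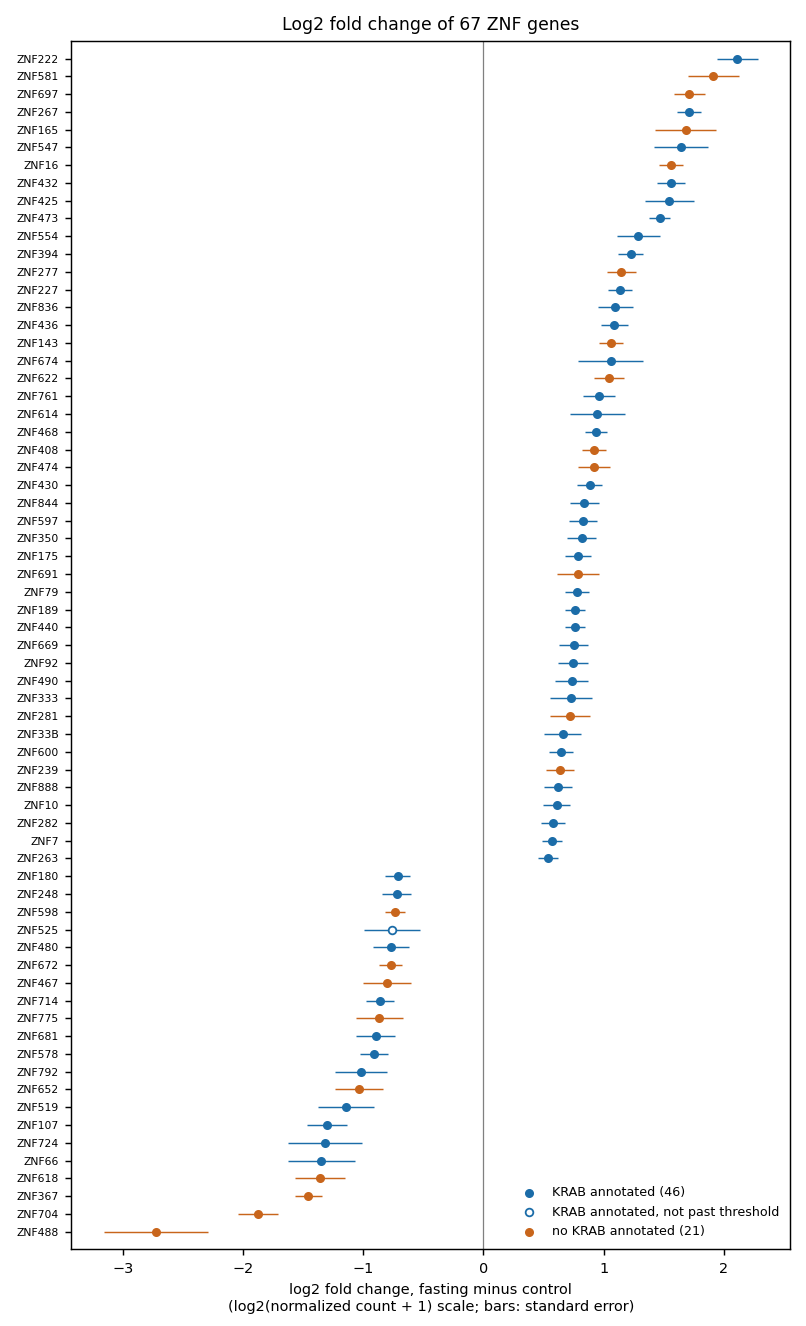
Log2 fold change, fasting minus control (x axis, log2(normalized count + 1) scale), of the 67 ZNF genes (y axis), with bars for the standard error of the limma fit. Blue points are KRAB genes and orange points genes without KRAB, the open point is ZNF525, and values run from 2.11 for ZNF222 to -2.73 for ZNF488 with no member near 0.

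Promoters are shown for 4 members on which the account below turns. They cover 250 bases before to 50 after the annotated start (RefSeq, GRCh38.p14). ZNF222, on chromosome 19, had the largest rise of the family. ZNF367, on chromosome 9, fell, and of the 56 members with a promoter window its promoter alone spells the E2F site TTTCGCGC. ZNF430 and ZNF714 are next to each other among the protein-coding genes of chromosome 19 and moved in opposite directions. Capitals mark matches, on either strand, to CCAAT (the NF-Y site), CCGGAAG (an ETS site), CTTCCGGT (a longer spelling that contains the ETS site on the other strand) and TTTCGCGC. The sequences are given 5′ to 3′ on the strand of the gene: ZNF222 from chr19:44025129-44025428 (+), ZNF367 from chr9:96418321-96418620 (-), ZNF430 from chr19:21020407-21020706 (+) and ZNF714 from chr19:21081953-21082252 (+).
ZNF222: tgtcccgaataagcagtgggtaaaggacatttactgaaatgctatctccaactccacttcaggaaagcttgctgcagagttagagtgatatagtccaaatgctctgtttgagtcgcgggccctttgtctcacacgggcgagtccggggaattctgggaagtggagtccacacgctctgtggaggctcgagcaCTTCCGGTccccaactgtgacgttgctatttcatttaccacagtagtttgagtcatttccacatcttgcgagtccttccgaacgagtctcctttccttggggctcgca
ZNF367: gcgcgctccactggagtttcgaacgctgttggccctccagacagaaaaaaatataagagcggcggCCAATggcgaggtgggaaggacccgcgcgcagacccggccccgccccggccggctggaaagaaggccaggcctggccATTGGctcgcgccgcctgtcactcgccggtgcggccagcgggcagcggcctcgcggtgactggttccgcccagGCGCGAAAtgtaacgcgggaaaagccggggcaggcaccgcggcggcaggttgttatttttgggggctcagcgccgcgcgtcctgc
ZNF430: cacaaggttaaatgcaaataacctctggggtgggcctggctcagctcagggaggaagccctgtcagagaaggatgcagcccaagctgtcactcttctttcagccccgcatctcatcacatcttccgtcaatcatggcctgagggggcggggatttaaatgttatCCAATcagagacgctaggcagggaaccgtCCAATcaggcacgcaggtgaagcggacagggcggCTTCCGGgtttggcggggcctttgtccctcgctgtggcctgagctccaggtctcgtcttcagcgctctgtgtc
ZNF714: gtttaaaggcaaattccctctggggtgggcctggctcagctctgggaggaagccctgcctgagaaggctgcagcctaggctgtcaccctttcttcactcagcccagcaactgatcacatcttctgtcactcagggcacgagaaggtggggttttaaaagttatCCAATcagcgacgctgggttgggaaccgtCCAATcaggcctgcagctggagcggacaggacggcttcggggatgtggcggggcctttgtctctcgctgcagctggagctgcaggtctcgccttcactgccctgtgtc
Counted from the start site, the ZNF222 match begins at base -58. The ZNF367 promoter has CCAAT at -185 and, on the opposite strand, at -108, and the E2F spelling on the opposite strand at -35. No GENCODE transcript start was found in the ZNF367 window, unlike the other 3, so its positions rest on the RefSeq start alone. The promoters of ZNF430 and ZNF714 were identical at 249 of 295 aligned bases (84.4%), where other pairs of these 4 lay between 58.7% and 63.7%. Both hold a CCAAT pair, at -86 and -57 in ZNF430 and at -87 and -58 in ZNF714. The ETS spelling at -23 of ZNF430 was not found in the ZNF714 window.

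KRAB genes that rose included 12 with at least 2-fold changes. ZNF222 (ENSG00000159885) had 42.4, 47.6 and 51.6 normalized counts in control and 189, 183 and 256 in fasting libraries. The highest control value lay far below the lowest fasting value, a 4.33-fold rise. Here and below a fold is taken from group means on the log2 scale (log2 fold change 2.11, SE 0.17, limma adjusted p = 1.83e-04). ZNF267 (ENSG00000185947) went from 332, 301 and 315 to 994, 1149 and 975, a 3.27-fold rise (adjusted p = 5.02e-05). All 3 fasting libraries of ZNF267 were alike, with replicate 3 only 0.13 log2 units below the others.

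ZNF473 (ENSG00000142528), a component of the complex that cuts the 3′ ends of replication-dependent histone mRNAs, had 327, 296 and 297 normalized counts in control and 878, 821 and 846 in fasting libraries, a 2.76-fold rise (limma adjusted p = 5.96e-05). ZNF432 (ENSG00000256087) had 303, 292 and 252 in control and 906, 847 and 747 in fasting libraries, a 2.94-fold rise. ZNF394 (ENSG00000160908), a SCAN and KRAB protein, rose 2.34-fold from 612, 618 and 629 to 1395, 1310 and 1669. These 3 genes rose in every scaling run, with log2 fold changes of 0.995, 1.095 and 0.75 under total-read scaling.

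Low-count KRAB genes rose as well. ZNF547 had 19.7, 12.8 and 14.5 normalized counts in control and 45.7, 46.03 and 60.5 in fasting libraries (log2 fold change 1.64, SE 0.22). ZNF425 went from 16.8, 15.6 and 23.98 to 59.7, 53.3 and 55.0 (1.55, SE 0.20). ZNF554 went from 25.6, 31.3 and 36.3 to 71.1, 75.3 and 83.9 (1.29, SE 0.18). In these genes the groups lay apart, as in 100% of listed genes. Fasting libraries held at least 45.7 and control libraries at most 36.3, but a few reads carry each value.

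ZNF227, ZNF836, ZNF436 and ZNF674 completed the 12, with log2 fold changes of 1.14, 1.098, 1.09 and 1.06. ZNF674 rested on the choice of libraries: its controls were 28.6, 28.4 and 31.98, fasting replicates 1 and 2 were 78.7 and 78.5, and fasting replicate 3 was 39.9. Its log2 fold change was 1.06 with all libraries (limma adjusted p = 0.0457) and 1.38 without fasting replicate 3. Leaving out any of the other 5 libraries took its adjusted p above 0.05, to at most 0.181.

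The remaining 22 KRAB genes that rose did so by less than 2-fold, from 1.45-fold for ZNF263 to 1.95-fold for ZNF761. ZNF282 (ENSG00000170265), at 1435, 1498 and 1465 normalized counts in control and 2056, 2045 and 2496 in fasting libraries, rose 1.49-fold. ZNF10, whose KRAB domain is the repressor module of many CRISPR interference tools, went from 183, 177 and 205 to 296, 298 and 269.5, a 1.53-fold rise that was lost without control replicate 2 (limma adjusted p = 0.0526). ZNF350, which binds BRCA1 and represses the stress gene GADD45A, rose 1.76-fold from 127, 105 and 112 to 199, 204 and 204. ZNF430, whose promoter is printed above, rose 1.84-fold from 168, 175 and 177 to 307, 341 and 315. Of these 22 genes ZNF468 alone also passed with total-read scaling (log2 fold change 0.47, edgeR adjusted p = 0.0265), and 99.1% of the 100-base words of its representative transcript occur in transcripts of other genes, chiefly ZNF320, so its reads are uncertain.

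**Figure D3:**
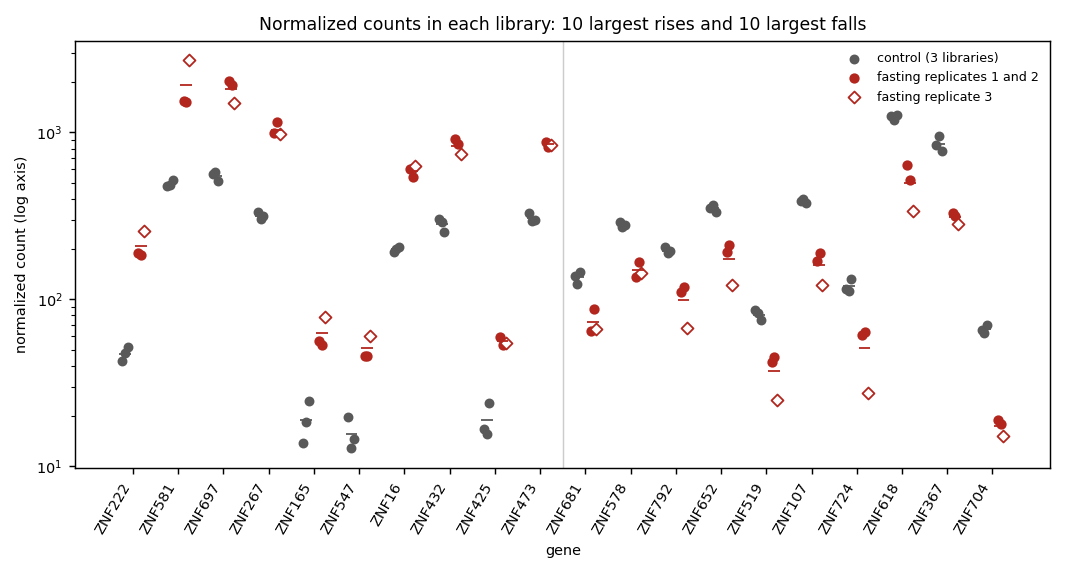
Normalized counts (y axis, log axis) of the 10 largest rises (left of the line) and the 10 largest falls (right) among ZNF genes whose higher group averaged 50 or more (x axis). Grey points are control libraries, filled red points fasting replicates 1 and 2, open diamonds fasting replicate 3 and short lines group means. No gene's groups overlap, which the choice of genes required and which holds in 100% of listed genes. Replicate 3 of ZNF724, at 27.5, lies well below the other fasting libraries at 60.9 and 63.8.

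KRAB genes that were lower in fasting medium numbered 12, of which 11 passed. ZNF107 (ENSG00000196247) had 389.6, 399 and 376 normalized counts in control and 169, 189 and 121 in fasting libraries (log2 fold change -1.30, SE 0.17, limma adjusted p = 1.55e-03). ZNF578 (ENSG00000258405) dropped from 290.0, 270.0 and 279 to 136, 166 and 144 (-0.91, SE 0.12). ZNF714 (ENSG00000160352), the neighbour of ZNF430, dropped from 509, 516 and 504 to 278, 322 and 248 (-0.86, SE 0.12). These 3 genes stayed past the threshold whichever library was left out.

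ZNF724 (ENSG00000196081) had 115, 112 and 133 normalized counts in control and 60.9, 63.8 and 27.5 in fasting libraries, a log2 fold change of -1.32 (limma adjusted p = 0.0278) that was -0.93 without fasting replicate 3. In ZNF724, 52.1% of 100-base words are shared with a gene model of another name, so its reads are uncertain too. ZNF519 dropped from 85.8, 82.4 and 74.9 to 41.9, 45.0 and 24.8, and ZNF792 from 205, 188 and 194 to 110.4, 119 and 67.4, with log2 fold changes of -1.15 and -1.02, or -0.88 and -0.76 without fasting replicate 3. Fasting replicate 3 was the lowest library in all 3 genes, and none of them passed without control replicate 1, 2 or 3 (limma adjusted p of at most 0.138, 0.0744 and 0.0789). ZNF681 (-0.90), ZNF480 (-0.77), ZNF248 (-0.72) and ZNF180 (-0.71) fell less. ZNF480 was lost without any 1 of the controls (at most 0.0648) and ZNF681 without control replicate 3 (0.0504).

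ZNF66 was the lowest of the KRAB genes that fell, at 23.7, 27.7 and 24.7 in control and 14.0, 8.37 and 6.88 in fasting libraries (log2 fold change -1.35, SE 0.27, limma adjusted p = 0.0141). It did not pass with DESeq2's own size factors (adjusted p = 0.0824), nor with limma without any 1 of the controls or fasting replicate 2 (at most 0.0770). For ZNF525 the values were 179, 207 and 213 in control and 135, 149.6 and 79.8 in fasting libraries. Its log2 fold change was -0.76 with all libraries and -0.48 without fasting replicate 3, where it passed (limma adjusted p = 0.0080).

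ZNF genes without KRAB that rose spanned several known roles. ZNF143 (ENSG00000166478), an activator of small nuclear RNA genes and of many protein-coding promoters, had 286, 274 and 273 normalized counts in control and 635, 576 and 538 in fasting libraries, a 2.09-fold rise (limma adjusted p = 3.62e-04). ZNF622, a maturation factor of the large ribosomal subunit, went from 784, 811 and 837 to 1522, 1509 and 2032, a 2.06-fold rise. ZNF16 (ENSG00000170631) went from 192, 200.3 and 205 to 604, 539.8 and 626, a 2.95-fold rise (adjusted p = 7.43e-05). The groups lay apart in these genes, as in 100% of listed genes.

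The largest rise without KRAB was that of ZNF581 (ENSG00000171425), a short transcript, at 474, 482 and 521 normalized counts in control and 1546, 1521 and 2708 in fasting libraries. Fasting replicate 3 was the high one: the rise was 3.76-fold with all libraries (log2 fold change 1.91), and the log2 fold change was 1.64 without it. ZNF697 (ENSG00000143067), a long transcript, showed the opposite order, with 560.2, 579 and 508 in control and 2026, 1919 and 1502 in fasting libraries. Its log2 fold change was 1.71 with all libraries (limma adjusted p = 1.37e-04) and 1.84 without replicate 3.

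ZNF165, a SCAN protein known as a cancer-testis antigen, rose from 13.8, 18.5 and 24.7 normalized counts to 55.9, 53.3 and 78.4 (log2 fold change 1.68, SE 0.26). ZNF277 rose 2.22-fold from 340.3, 382 and 396 to 744, 791 and 954. The other 5 rose by less than 2-fold, and these were ZNF408, a gene of inherited retinal vessel disease (0.92), ZNF474 (0.92), ZNF691 (0.79), ZNF281 (0.72) and ZNF239 (0.64). ZNF691 was lost without any 1 of the controls or fasting replicate 2 (at most 0.0898), and ZNF239 without control replicate 1 (0.0514). ZNF281 (ENSG00000162702), a factor of epithelial-mesenchymal transition in colorectal cancer cells, had 865, 910.1 and 775 in control, 1588 and 1614 in fasting replicates 1 and 2, and 1060.2 in replicate 3. Its log2 fold change was 0.72 (limma adjusted p = 0.0277), or 0.92 without replicate 3, and leaving out any of the other 5 libraries took its adjusted p above 0.05, to at most 0.142.

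Among the 9 genes without KRAB that fell, the largest changes were in ZNF488, ZNF704 and ZNF367. ZNF488 (ENSG00000265763), a repressor known from oligodendrocyte development, had 32.5, 35.5 and 24.7 normalized counts in control and 6.35, 5.23 and 1.38 in fasting libraries. Its log2 fold change was -2.73 (SE 0.43, limma adjusted p = 3.94e-03), and -2.22 without fasting replicate 3, which held few reads of it. ZNF704 (ENSG00000164684) had 65.1, 62.5 and 70.5 in control and 19.04, 17.8 and 15.1 in fasting libraries (-1.88, SE 0.17). ZNF367 (ENSG00000165244), whose promoter is shown above, had 834, 948 and 776 in control and 329, 317 and 283 in fasting libraries (-1.46, SE 0.11, adjusted p = 1.50e-04). For ZNF704 and ZNF367 the 3 fasting libraries were alike and the calls held whichever library was left out.

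ZNF618 (ENSG00000157657) had 1256, 1186 and 1273 normalized counts in control and 635, 521 and 337 in fasting libraries, with replicate 3 lowest (log2 fold change -1.36, and -1.10 without it). ZNF652, a DNA-binding partner of the corepressor CBFA2T3, had 351, 369 and 334 in control and 193, 210.3 and 122 in fasting libraries (-1.04, and -0.80 without replicate 3), and its call was lost without control replicate 2 (limma adjusted p = 0.0524). ZNF672 (ENSG00000171161) had 5098, 5519 and 5021 in control and 2927, 2863 and 3384 in fasting libraries (-0.77, limma adjusted p = 1.19e-03). ZNF598 (ENSG00000167962), the ubiquitin ligase that marks collided ribosomes, had 1852, 1890.5 and 1999 in control and 1087, 1146 and 1221 in fasting libraries (-0.73, SE 0.08, adjusted p = 8.50e-04). ZNF672 and ZNF598 held their calls whichever library was left out.

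ZNF775 and ZNF467 fell as well, but in them replicate 3 lay nearest to the controls. ZNF775 had 269, 293 and 230.4 normalized counts in control and 128, 120.3 and 193 in fasting libraries (log2 fold change -0.87, limma adjusted p = 0.0230). ZNF467, which promotes fat cell formation from marrow stroma, had 94.7, 82.4 and 82.1 in control and 39.4, 46.03 and 64.6 in fasting libraries (-0.80, adjusted p = 0.0397). Without replicate 3 the log2 fold changes were -1.08 and -1.002, and leaving out any other library took both adjusted p-values above 0.05, to at most 0.111 and 0.186.

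Fasting replicate 3 lay below the other fasting libraries in most KRAB genes. Its log2 values differed from the mean of replicates 1 and 2 by a median of -0.13 over KRAB genes (33 of 46 genes below), 0.13 over genes without KRAB (9 of 21 below) and 0.04 over all listed genes (1670 of 3511 below). Among the 12 KRAB genes lower in fasting medium, all 12 had their replicate 3 value below that mean, with a median shift of -0.51. Over all 1747 listed genes on the lower side 1021 lay below, with a median of -0.12, and over the 9 without KRAB 5 did, with a median of -0.19. Among the 34 KRAB genes that rose, 21 lay below, with a median of -0.03. For the 12 without KRAB that rose the median was 0.15, and for the 1764 listed genes on the higher side 0.15. The difference between these classes was not tested. A distance of at least 0.5 log2 units was seen in 17 members for fasting replicate 3, 5 above and 12 below, against 4 in each of fasting replicates 1 and 2 and 2, 0 and 2 in control replicates 1 to 3.

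The fold changes without replicate 3 follow from these shifts by arithmetic, so the counts below repeat them and are not a second result. Without replicate 3 all 12 KRAB genes on the lower side had smaller absolute log2 fold changes, and their median moved from -0.90 to -0.80. Of the 34 KRAB genes that rose, 21 had larger ones, and their median moved from 0.83 to 0.89. Over the family 38 members became smaller and 29 larger. No direction changed, in the members or in any listed gene, and all 67 passed, as did 99.9% of listed genes.

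Transcript length moved with this shift. The 3092 listed genes of known length that averaged 50 or more in either group were put in 4 equal bins by length. In the shortest (78 to 2338 bases), replicate 3 lay a median of 0.41 above the others over these listed genes. Over 12 ZNF genes of that bin it lay at 0.37, and over the 5 of them with KRAB at 0.05. In the longest (5157 bases and more), it lay at -0.45 over these listed genes and -0.27 over 12 ZNF genes. Spearman's correlation of shift with length was -0.622 across 64 ZNF genes (those averaging 50 or more in either group), -0.446 across 44 with KRAB, -0.759 across 20 without and -0.685 across 3092 listed genes. These points share the same libraries and are genes, not replicates. The median representative transcript was 3992 bases for KRAB genes, 2616 for the others and 3365 for all listed genes. It was 4536.5 for KRAB genes that were lower and 3876.5 for those that rose. With the length trend removed from each library, 33 KRAB genes rose and 9 fell and 10 others rose and 9 fell, where 44.0% of listed genes rose and 40.1% fell. ZNF681, ZNF714, ZNF239, ZNF669 and ZNF474 then lost their calls.

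**Figure D4:**
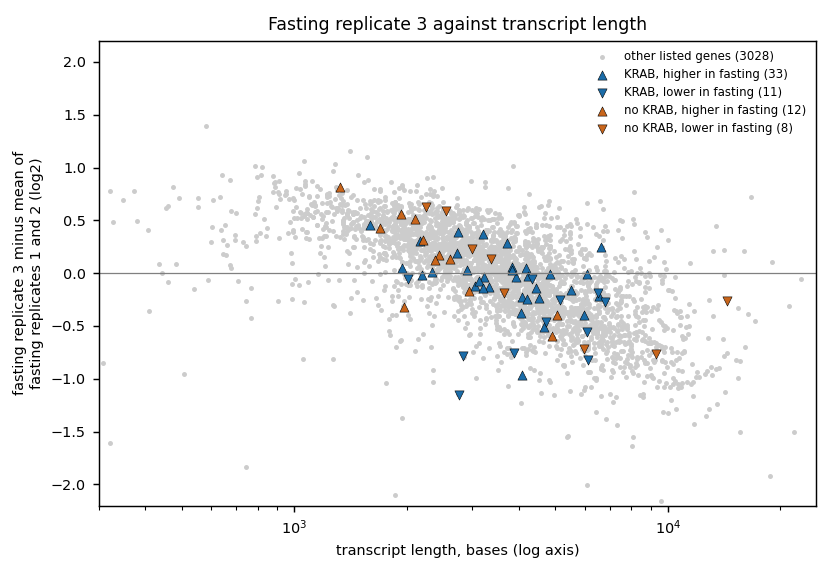
Log2 value in fasting replicate 3 minus the mean of fasting replicates 1 and 2 (y axis) against transcript length in bases (x axis, log axis), for 64 ZNF genes (triangles pointing up if higher in fasting medium and down if lower) and 3028 other listed genes (grey), with 7 genes outside the axes. The median lies above 0 in the bin of shortest transcripts and below 0 in that of the longest, with single members on either side, and the KRAB genes lower in fasting medium (downward blue triangles) all lie below 0.

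Of the 66 ZNF genes that passed, 47 passed with any library left out and 19 did not hold without 1 library or another. The number lost was 15, 15 and 16 without control replicates 1 to 3, and 7 and 10 without fasting replicates 1 and 2. Of the 11 KRAB falls 6, 6 and 5 passed without control replicates 1, 2 and 3, where 33.5%, 33.2% and 33.0% of listed genes fell past the threshold. With all libraries 44.6% of listed genes did, so calls were lost over the whole table too. The losses counted here are therefore not a result about ZNF genes. Rises that did not hold without any 1 of the controls or of fasting replicates 1 and 2 were those of ZNF33B, ZNF281, ZNF333, ZNF614 and ZNF674. ZNF888 was lost without control replicate 3 or fasting replicate 2, and ZNF490 without control replicate 1 or 3.

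Of 39 genes for the KRAB corepressor and the heterochromatin it builds, 11 were listed and 28 have no value here. Of the 11, 10 fell and 1 rose, where 44.6% of all listed genes fell. Their log2 fold changes, with the rise included, had a median of -0.76, where the median over listed genes on the lower side was -0.92. TRIM28 itself and the methyltransferase SETDB1 were not listed. The heterochromatin protein genes CBX5 and CBX1 had log2 fold changes of -1.59 and -0.82. DNMT1, the maintenance DNA methyltransferase, and UHRF1, which brings it to replicated DNA, had -1.24 and -1.52, and DNMT3B, a de novo enzyme, had -1.33. EHMT1, EHMT2 and SUV39H1, which methylate histones, TASOR, a scaffold of the HUSH silencing complex, and RBBP7, a histone-binding subunit, also fell. ATF7IP2, a relative of the partner of SETDB1, rose by 0.84. All 11 kept their side of 0 without fasting replicate 3 and with total-read scaling. So did all 1764 listed genes on the higher side and all 1747 on the lower, so this is no result about the 11. ATF7IP2 did not pass with total-read scaling (edgeR adjusted p = 0.0644).

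KRAB genes sit in clusters on chromosome 19, where 28 of the 46 lay by the RefSeq order of genes. There 19 were higher and 9 lower in fasting medium, and elsewhere 15 were higher and 3 lower. Pairs of consecutive members with at most 4 protein-coding genes between them numbered 14, of which 9 moved in the same direction and 5 in opposite directions. In 1 run ZNF350, ZNF614, ZNF432 and ZNF836 all rose, with log2 fold changes of 0.82, 0.95, 1.56 and 1.098, and the next member, ZNF480, had -0.77. In another, ZNF66 and ZNF714 fell on either side of ZNF430, which rose. The 2 pairs with no protein-coding gene between them split, with ZNF614 and ZNF432 rising together and ZNF430 and ZNF714 moving apart. ZNF614 held few reads, with 20.7, 18.5 and 20.4 normalized counts in control and 35.5, 53.3 and 31.6 in fasting libraries. ZNF430 and ZNF714 thus had opposite changes with the similar promoters printed above.

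RefSeq promoter windows were found for 56 of the 67 members, and 22 spellings of sites were searched in them on both strands. Members and protein-coding genes were counted once per gene and all promoters once per window, so the protein-coding share is the like one. CCAAT, the NF-Y site, stood in 37 of 56 (66.1%), against 34.6% of all 35116 promoters and 42.1% of those of protein-coding genes. Among KRAB genes it stood in 20 of 29 that rose and 8 of 11 that were lower. CCGGAAG, the ETS site, stood in 26 of 56 (46.4%), against 10.3% of all promoters and 16.5% of protein-coding ones, in 12 of 29 KRAB genes that rose and 8 of 11 that were lower. The longer spelling CTTCCGGT, which always contains it, was found in 5 of 56 (8.93%), against 2.17% of all promoters and 3.57% of protein-coding ones. The ZNF143 site stood in 5 of 56 (8.93%), against 0.988% of all promoters and 1.79% of protein-coding ones.

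Sites of stress factors were searched as well. The antioxidant response element stood in 9 of 56 promoters (16.1%), against 12.5% of all promoters and 14.5% of protein-coding ones. The heat shock element stood in 0 of 56 promoters, against 0.49% of all promoters and 0.537% of protein-coding ones. The ATF4 composite site TGATGNAA was found in 2 (ZNF143 and ZNF436), or 3.57%, against 3.62% of all promoters and 3.6% of protein-coding ones. The cyclic AMP response element TGACGTCA was found in 3 (5.36%), against 1.85% of all promoters and 3% of protein-coding ones. The E2F spelling TTTCGCGC was found in ZNF367 alone (1.79% of the 56), against 0.515% of all promoters and 0.94% of protein-coding ones. The other E2F spellings searched were TTTGGCGC, found in ZNF547, which rose, and TTCCCGCC, found in ZNF792, which fell. A match describes letters and not a bound site.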

How the data were processed

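RNA from 6 RKO libraries was analysed, 3 in control and 3 in fasting medium, grouped by their treatment label; the shared treatment protocol describes only the low-serum medium, for control samples too. Libraries were strand-marking, per the labels' protocols; DESeq 1.10.1, HTSeq 0.6.1 and UMI-tools 1.0.0 are named, without roles, per the submitters' processing notes. Aligner, build and strand setting of the counting: not given in the sources used here. Genes that overlap on opposite strands therefore cannot be told apart. The authors deposited a single table of normalized counts, a signal equal to reads divided by a size factor per library, beside p-values, adjusted p-values and log2 fold changes of their own. Whole reads were recovered for 100% of values within 0.01 read, with size factors of 1.01, 1.41 and 1.38 (control) and 0.788, 0.956 and 0.727 (fasting).

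All 3511 genes averaged 1 or more in either group. They were tested on log2(normalized count + 1) with limma 3.58.1 (R 4.3.3; trend, empirical Bayes, two-sided). Benjamini-Hochberg adjustment ran over 29845 genes, with unlisted ones set to a p-value of 1. This scale understates changes of low genes. Moderation was estimated on genes chosen for their difference. The fit was tested on simulated data. Alternatives were edgeR 4.0.16 and DESeq2 1.42.0 on recovered reads, other scalings, pseudocounts and filters, removal of a length trend, a replicate block and leaving out each library. A change in level per cell and in the share of cells with a transcript cannot be told apart in bulk RNA.

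Members and lists were chosen with earlier results of these data known. Named genes are the 10 largest rises and falls and the 3 smallest adjusted p-values in each class. These were taken from members past the threshold, with groups that do not overlap and a mean of at least 50 in the higher group. Also named are the 3 highest and lowest in fasting replicate 3 and members not past the threshold. Others are named as examples after their values were seen. Transcript lengths and shared words came from GENCODE 29, promoters and gene order from RefSeq GRCh38.p14. Protein sequences are not analysed here.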

Additional observations from a re-analysis of the deposited data

How the results depend on the processing

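With edgeR on the total reads of listed genes, KRAB rises fell from 34 to 12, a change that follows from the shift of all log2 fold changes by -0.47. KRAB falls ranged from 5 to 12 on leaving out 1 library each. The median shift of ZNF genes in fasting replicate 3, -0.07 as deposited, was -0.26 with total-read scaling, -0.11 with DESeq2's size factors and -0.027 with the length trend removed, alternatives chosen after seeing the data. The other counts past the threshold lay within 1.5 times under the alternatives run, and no named gene changed direction. Counts of at least 2-fold changes, recomputed after seeing the data, moved more: KRAB rises, 12 as deposited, ranged from 5 to 19 and falls, 5 as deposited, from 1 to 12, and without KRAB rises (7) ranged from 4 to 10 and falls (5) from 4 to 9. Of the 66 calls, edgeR and DESeq2 on the deposited size factors kept 66 each, DESeq2's own size factors 64, length trend removal 61 and total-read scaling 40. On the deposited size factors edgeR called 95.7% and DESeq2 99.2% of all listed genes. DESeq2's own size factors called 50.2% higher and 38.3% lower, length trend removal 44.0% and 40.1%, and total-read scaling 25.0% and 49.4%. Calls were thus lost over the whole table too. A replicate block kept 60 (93.8% of all listed genes passed), with 30 KRAB rises and 11 falls, and 12 and 7 without KRAB. The replicate numbers gave no sign of pairing: deviations of same-numbered libraries correlated at 0.0456, 0.0235 and 0.0798, and control replicate 1 correlated best with fasting replicate 2. The planned count of zinc finger motifs in protein sequences was not run. Low counts limit ZNF488, ZNF66, ZNF547, ZNF425, ZNF165 and ZNF614, and the moderation rests on selected genes.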

Other observations

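Genes of other zinc finger families with symbols such as ZBTB, KLF, SP or EGR were listed for 24 of 154, with 17 higher, 6 lower and SP4 not past the threshold, and a median log2 fold change of 0.70, where 49.7% of all listed genes were higher and 44.6% lower. With total-read scaling 7 rose and 7 fell, where 25.0% of all listed genes were higher and 49.4% lower. All 6 listed KLF genes and all 3 listed EGR genes rose, among them KLF4 (2.06) and the immediate early genes EGR1 (1.43) and EGR2 (2.64), but with total-read scaling 2 of the 6 KLF genes passed and all 3 EGR genes did. Of 8 listed ZBTB genes 6 rose and 2 fell, led by ZBTB43 (1.52), and 1 rise passed with total-read scaling. SP8 (-2.09) and SP5 (-1.79) fell. The symbol rule for ZFP genes also takes ZFP36 (1.60), an RNA-binding protein of another finger type. Among 25 genes of transcription elongation and RNA turnover 4 were listed: ZFP36, SUPT6H (0.68) and CDK7 (0.62) rose, and CNOT6 (-0.70) fell. With total-read scaling ZFP36 alone of these rises passed.

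Related ZNF transcripts can share reads. In 46 of the 67 members no 100-base word of the representative transcript occurred in another gene's transcripts, and in 7 more than 10% did. More than 50% did in ZNF468 (99.1%), ZNF490 (70.5%) and ZNF724 (52.1%), and the values of these 3 genes are uncertain for that reason. How the authors' counting treated such reads is not given in the sources used here.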
